A study of Mus musculus with 17 samples.

Results

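The 29 genes described here code for the enzymes that make cholesterol and for the sterol regulatory element-binding protein (SREBP) system that controls them. They were picked by name from the table of read counts and make up 29 of the 55536 genes in the table and 29 of the 15352 that had enough reads to be tested. There are 8 enzymes of the mevalonate pathway and its first branches (Acat2, Hmgcs1, Mvk, Pmvk, Mvd, Idi1, Fdps, Ggps1). A further 11 enzymes make squalene and lead from it to cholesterol (Fdft1, Sqle, Lss, Cyp51, Tm7sf2, Msmo1, Nsdhl, Hsd17b7, Ebp, Sc5d, Dhcr7). The SREBP regulators are 5 (Srebf1, Srebf2, Insig1, Insig2, Scap), and 5 more are lipid genes known as SREBP targets (Stard4, Lpin1, Fasn, Acaca, Scd2).

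The study measured bulk RNA in B cells of mouse spleen from wild-type (WT) animals and from animals with a knock-in change in p52, an NF-kappaB subunit (p52ki). Cells were taken at 3 stages, naive, activated and germinal center (GC), the GC being the site where activated B cells divide quickly and change their antibody genes. WT naive, WT activated and WT GC cells have 3 libraries each (replicates 1, 3 and 4), p52ki naive and p52ki activated cells have 3 each (replicates 2, 3 and 5), and p52ki GC cells have 2 (replicates 2 and 5). All 17 libraries therefore come from spleen B cells, and the genotype is the difference between the 2 series of stages. The nature of the p52 change, the sorting gates, any immunization, and the age and strain of the mice were not given in the material used here. No label states that the replicates are separate animals, so p-values measure only the spread between these samples. The submitters' library numbers run in 1 block for WT and in a later block for p52ki, so a batch that follows this order cannot be told apart from the genotype.

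Cholesterol is built from acetyl-CoA through mevalonate, isoprenoid units, squalene and lanosterol. When sterols are scarce in the endoplasmic reticulum, SCAP carries SREBP precursors to the Golgi, where they are cut, and the freed factor enters the nucleus and switches on genes of the pathway. When sterols are plentiful, INSIG proteins hold the SCAP-SREBP complex back. SREBP2, from Srebf2, acts mainly on sterol genes, and SREBP1, from Srebf1, mainly on fatty acid genes; Insig1 is itself an SREBP target. Dividing cells need new membrane, and mevalonate also feeds the prenyl groups attached to small GTPases.

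Total counts were 4067281 to 10036347 per library. Levels are given as CPM, read counts scaled to the same TMM-adjusted total of tested genes in every library. The GC libraries differ in how many genes they hold: WT GC replicate 3, p52ki GC replicate 2 and p52ki GC replicate 5 had counts for 11232 to 13044 genes, against 16745 to 19672 in the other 14 libraries. After thinning every library to the smallest total, these 3 held 11154, 11390 and 12761 genes and the others 16258 or more. Both p52ki GC libraries are of this kind, so their low number of detected genes cannot be told apart from the genotype at the GC stage. Summed CPM of 6 GC B cell markers was 685 to 1860 in the 5 GC libraries and 202 or less in the other 12, and 6 general B cell markers summed to 9220 or more in every library. Of the other cell types, summed markers of T cells, NK cells and macrophages and dendritic cells were each at or below 79.7 CPM in every library, neutrophil markers at or below 4.81 CPM, and erythroid and platelet markers at 186 and 223 CPM in p52ki GC against 38 to 117 in WT GC. Plasma cell markers summed to 2680 to 5930 CPM in WT GC, 1960 to 8210 in WT activated and 335 to 396 in WT naive cells. In p52ki they summed to 2720 to 2740 CPM in GC, 1660 to 3280 in activated and 321 to 350 in naive cells. Summed CPM of 6 naive B cell markers was 7620 to 9070 in the naive libraries and 2920 to 4270 in the activated ones. It was 481 to 683 in WT GC and 1360 to 1520 in p52ki GC, where 5 of the 6 genes were called higher than in WT GC and 0 lower (median log2 difference 1.26). The part these marker levels have in the differences below was not tested.

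RefSeq promoter sequences (GRCm38.p6, 250 bases before to 50 after each start) were matched for 24 of the 29 genes. They were searched on both strands for the SREBP element TCACNCCAC, for the NF-Y box CCAAT, whose factor works beside SREBP at many sterol genes, and for the E-box CACGTG. No base of these windows was shared between motifs, and a gene with several starts was counted if any window held the letters. Shown are the members whose window holds the SREBP element or both an E-box and an NF-Y box, each ending before the gene's first annotated exon. They were chosen after the matches were seen and from members called in a GC comparison, so motifs and calls are not independent here. Capitals mark the 3 motifs on either strand, and ATTGG is CCAAT read on the other strand. Hmgcs1 (chr13:119690101-119690350, + strand) holds the SREBP element, while Insig1 (chr5:28071162-28071362, + strand), Hsd17b7 (chr1:169969242-169969455, - strand) and Sc5d (chr9:42264301-42264550, - strand) hold the other pair.
Hmgcs1: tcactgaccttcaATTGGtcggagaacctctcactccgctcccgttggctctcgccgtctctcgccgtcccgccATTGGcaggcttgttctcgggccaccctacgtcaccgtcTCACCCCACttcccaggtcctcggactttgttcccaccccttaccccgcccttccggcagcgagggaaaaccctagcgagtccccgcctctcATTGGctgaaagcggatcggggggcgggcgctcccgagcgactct
Insig1: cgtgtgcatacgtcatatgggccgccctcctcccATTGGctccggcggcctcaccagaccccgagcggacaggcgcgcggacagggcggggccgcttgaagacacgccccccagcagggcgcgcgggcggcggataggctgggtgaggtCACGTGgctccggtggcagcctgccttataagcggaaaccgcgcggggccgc
Hsd17b7: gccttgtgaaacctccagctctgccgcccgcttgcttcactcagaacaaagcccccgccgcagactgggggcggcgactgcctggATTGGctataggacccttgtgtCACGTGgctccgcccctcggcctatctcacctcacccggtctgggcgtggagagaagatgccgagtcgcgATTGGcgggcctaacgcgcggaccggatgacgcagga
Sc5d: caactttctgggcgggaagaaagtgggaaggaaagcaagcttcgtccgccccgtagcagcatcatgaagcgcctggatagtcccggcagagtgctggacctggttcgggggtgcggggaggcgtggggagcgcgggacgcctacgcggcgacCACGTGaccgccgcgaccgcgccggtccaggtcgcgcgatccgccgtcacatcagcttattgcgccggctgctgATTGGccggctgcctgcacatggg

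The SREBP element in these letters was found in 1 of the 24 matched members, Hmgcs1, and in 1.44% of the 27025 genes with a promoter entry. The NF-Y box was found in 20 of 24 members (83.3%) and in 41.1% of all genes. The E-box was found in 5 of 24 members (20.8%, Dhcr7, Hsd17b7, Insig1, Sc5d and Scap) and in 8.09% of all genes. These matches describe the letters in the windows and say nothing of whether a factor binds there.

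Before activation the members already differed widely in level. Per kilobase of exon, mean levels in WT naive cells ran from 23.3 CPM for Ggps1, which makes the geranylgeranyl group, down to 0.332 CPM for Fdps, which makes farnesyl diphosphate. Next to Ggps1 stood Srebf2 at 22 and Ebp, the sterol isomerase, at 21.4 CPM per kilobase. The spread of Ebp over its 3 libraries (mean 49.5 CPM, SD 10.1) covers the gap to both, so the order of these 3 is not set. Fdps was at 2.09 CPM or less in all 17 libraries. It has processed pseudogene copies in the mouse genome, and the treatment of reads that match several places was not given in the material used here, so its level is uncertain.

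The step from naive to activated cells left the module without a detected change. In WT cells 0 of 29 members passed the test between activated and naive cells (edgeR quasi-likelihood fit, p adjusted by the Benjamini-Hochberg method across every tested gene and called below 0.05). None had an unadjusted p below 0.05 either, the share of all genes called was 0.319%, and limma's voom called 1 member. In p52ki cells the count was again 0 of 29, with 0 at an unadjusted p below 0.05, beside 0.117% of all genes and 1 member by voom. The members' median log2 difference was -0.02 in WT and -0.09 in p52ki, beside 0.00 over all genes in both.

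Srebf2 had the smallest p among members at this step in both genotypes. Its CPM was 150, 164 and 159 in WT naive and 70.5, 138 and 107 in WT activated cells. In p52ki cells it was 194, 153 and 195 in naive and 149, 108 and 109 in activated libraries. The naive libraries were above the activated ones without overlap in each genotype, but the log2 differences of -0.59 (SE 0.318) in WT and -0.57 (SE 0.318) in p52ki did not pass (adjusted p = 1 for both). In WT, 4 members (Pmvk, Idi1, Fdps and Srebf2) were lower without overlap and 1 higher, beside 9.35% and 9.46% of all genes. In p52ki, 2 were lower and 3 higher, beside 8.12% and 10.8%. These counts are not read as a result about the members. Scd2, a stearoyl-CoA desaturase, was at 27.7, 30.2 and 21 CPM in WT naive and 36.2, 62.2 and 37.6 in WT activated cells, again without overlap and again not passing (log2 difference 0.79, SE 0.578, adjusted p = 1). Ebp (61.0, 41.8 and 45.8 CPM in WT naive, 70.9, 50.8 and 68.5 in WT activated) and Msmo1, a sterol methyl oxidase (60.2, 59.6 and 53.0 against 105, 58.5 and 67.7), overlapped between the stages. So did Lss, which closes the sterol rings, at 5.14, 9.34 and 8.48 CPM in WT naive and 1.45, 5.65 and 5.86 in WT activated cells. Fdps was at 1.47, 2.09 and 0.633 against 0.364, 0.326 and 0.611 CPM, levels of a few reads.

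**Figure D1:**
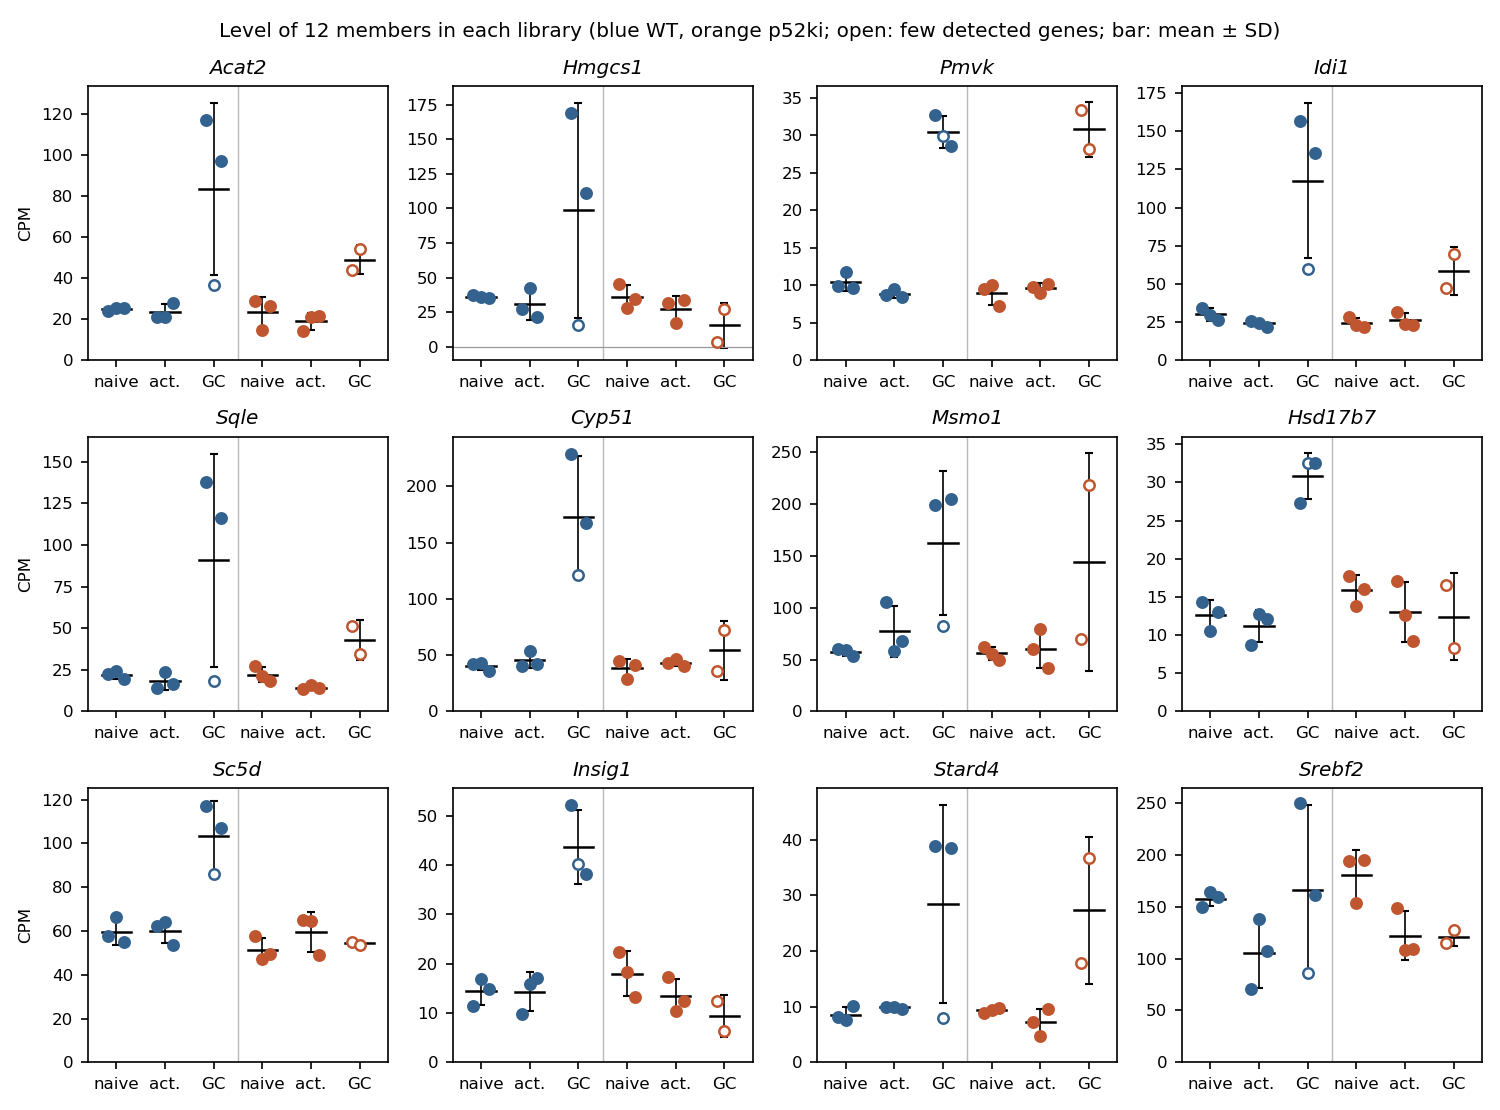
Level of 12 members in every library (y axis, CPM; x axis, naive, activated (act.) and GC cells, WT in blue on the left and p52ki in orange on the right). Points are libraries, open points are the 3 GC libraries with few detected genes, and bars give the mean ± SD; WT GC libraries stand above the other WT libraries for Idi1, Cyp51 and Insig1, while WT GC replicate 3 lies with the activated cells for Sqle and Stard4.

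At the GC stage sterol synthesis genes were higher in WT cells. Between WT GC and WT activated cells 8 of 29 members were called higher, where 5.8% of all tested genes were, and 0 were called lower, where 7.75% of all genes were. The 8 are Idi1, Cyp51, Pmvk, Acat2, Sqle, Insig1, Hsd17b7 and Sc5d. The median log2 difference was 0.79 over the 29 members and -0.13 over all genes, and 22 of 29 members were above 0. Without overlap of libraries, 9 of 29 members were higher and 2 lower, beside 11.7% and 19.5% of all genes. By role, 3 of 8 mevalonate enzymes, 4 of 11 sterol enzymes, 1 of 5 SREBP regulators and 0 of 5 lipid targets were called, with medians of 1.61, 1.08, 0.27 and 0.36. In bulk samples fewer cells of a type and less RNA per cell cannot be told apart, so these values describe the mixture in each library.

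Among the mevalonate enzymes, Idi1 (ENSMUSG00000058258, chr13:8885501-8892451), which makes the isoprenoid isomer needed for chain growth, was at 157, 60.1 and 136 CPM in WT GC libraries 1, 3 and 4. In WT activated cells it had 26.0, 24.7 and 22.1 CPM and in WT naive cells 34.4, 29.7 and 26.2. Every WT GC library was above every other WT library, replicate 3 least so, and Idi1 rose by 2.28 on the log2 scale from activated cells (SE 0.344, 4.87-fold, adjusted p = 0.00046). Pmvk (ENSMUSG00000027952, chr3:89454541-89469013), the phosphomevalonate kinase, had the most even rise, with 32.7, 29.9 and 28.6 CPM in WT GC against 8.73, 9.46 and 8.43 in WT activated and 9.92, 11.8 and 9.62 in WT naive cells. The 3 GC libraries lay close together and far from the rest (log2 difference 1.78, SE 0.348, adjusted p = 0.00311).

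Acat2 (ENSMUSG00000023832, chr17:12942890-12960747), the thiolase of the first step, was at 117, 36.7 and 97.0 CPM in WT GC, 21.3, 21.3 and 27.8 in WT activated and 24.1, 25.3 and 25.4 in WT naive cells. It rose by 1.83 on the log2 scale from activated cells (SE 0.402, adjusted p = 0.00671), with replicate 3 again lowest of the GC libraries but above all activated ones. Hmgcs1 (ENSMUSG00000093930, chr13:119690379-119708260), which makes HMG-CoA and whose promoter holds the SREBP element shown above, had 169, 15.7 and 111 CPM in WT GC against 27.1, 42.9 and 21.9 in WT activated cells. Replicates 1 and 4 were the highest of all and replicate 3 the lowest of the 6, and the difference did not pass (1.69, SE 0.691, adjusted p = 0.126). The other mevalonate enzymes, Mvk, Mvd, Fdps and Ggps1, had log2 differences of 0.50, 0.20, 1.54 and -0.78 and were not called.

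Among the sterol enzymes, Cyp51 (ENSMUSG00000001467, chr5:4081145-4104746), the lanosterol demethylase, was at 229, 121 and 167 CPM in WT GC, 40.7, 53.5 and 42.0 in WT activated and 42.5, 43.1 and 36.2 in WT naive cells. All GC libraries were above all others, and it rose by 1.93 from activated cells (SE 0.308, adjusted p = 0.000716). Sqle (ENSMUSG00000022351, chr15:59315077-59331192), the squalene epoxidase and a rate-limiting step, was at 138, 18.1 and 116 CPM in WT GC against 14.0, 23.9 and 16.7 in WT activated and 22.2, 24 and 19.2 in WT naive cells. Replicates 1 and 4 were high and replicate 3 lay within the activated libraries, so this rise of 2.32 (SE 0.535, adjusted p = 0.00923) rests on replicates 1 and 4. With replicate 3 alone as the GC group, Sqle differed from activated cells by -0.01.

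Hsd17b7 (ENSMUSG00000026675, chr1:169949535-169969241), a sterol ketoreductase, rose by 1.46 (SE 0.4, adjusted p = 0.024), with 27.3, 32.6 and 32.6 CPM in WT GC against 8.73, 12.7 and 12.1 in WT activated cells. Sc5d (ENSMUSG00000032018, chr9:42251595-42264256), the sterol desaturase, had the smallest called rise, 0.79 (SE 0.218, adjusted p = 0.0258), with 117, 85.9 and 107 CPM against 62.3, 64.0 and 53.6. For both genes all GC libraries, replicate 3 included, stood above all activated ones. Fdft1, the squalene synthase, also stood apart in every library, at 83.7, 82.3 and 92.2 CPM in WT GC and 39.6, 28.6 and 23.4 in WT activated cells, but its log2 difference of 1.5 (SE 0.572) did not pass (adjusted p = 0.102). Lss, Tm7sf2, Msmo1, Nsdhl, Ebp and Dhcr7 were not called, with log2 differences of 1.95, 0.70, 1.08, 0.49, -0.34 and -0.34.

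Of the regulators, Insig1 (ENSMUSG00000045294, chr5:28071363-28078662), the sterol-sensing anchor, was the one called. It was at 52.2, 40.3 and 38.3 CPM in WT GC, 9.82, 16 and 17.2 in WT activated and 11.5, 17.0 and 14.9 in WT naive cells. All GC libraries were above all others, and it rose by 1.6 from activated cells (SE 0.409, adjusted p = 0.0167). Insig2, its paralog, was at 25.6, 73.1 and 19.9 CPM in WT GC and 28.7, 33.8 and 35.8 in WT activated cells, with replicate 3 high and the other two below the activated range (0.27, SE 0.394, adjusted p = 0.724).

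The genes for the factors themselves did not pass. Srebf2 was at 250, 85.9 and 161 CPM in WT GC against 70.5, 138 and 107 in WT activated cells, with overlap (0.66, SE 0.319, adjusted p = 0.202). Srebf1 was at 64.8, 12.6 and 46.8 against 32.9, 52.3 and 46.8 CPM, also with overlap (-0.08, SE 0.475, adjusted p = 0.937). Scap, the escort protein, was at 25.5, 19.5 and 15.7 against 23.6, 37.8 and 26.7 CPM (-0.54, SE 0.557, adjusted p = 0.589).

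Among the lipid targets, Fasn, the fatty acid synthase, was at 58.0, 27.7 and 30.2 CPM in WT GC and 16.4, 25.5 and 13.7 in WT activated cells, without overlap but not called (1.06, SE 0.499, adjusted p = 0.19). Acaca, the acetyl-CoA carboxylase that feeds it, was at 10.1, 4.07 and 8.37 against 4.54, 8.15 and 4.89 CPM (0.36, SE 0.842, adjusted p = 0.835). Scd2 was at 70.9, 7.94 and 40.4 against 36.2, 62.2 and 37.6 CPM (-0.19, SE 0.574, adjusted p = 0.877), and both genes overlapped between the stages. Stard4, a sterol carrier, was at 38.9, 7.94 and 38.6 CPM in WT GC and 10, 10 and 9.65 in WT activated cells, high in 2 libraries and below the activated ones in replicate 3 (1.53, SE 0.535, adjusted p = 0.0732). Lpin1, a phosphatidate phosphatase, went the other way, at 2.05, 0 and 2.72 CPM against 5.82, 11.7 and 8.55 (-2.39, SE 0.787, adjusted p = 0.0595).

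Against WT naive cells the picture was similar. Here 10 of 29 members were called higher, where 8.45% of all genes were, and 0 lower, where 7.47% were. They include the same 8 genes plus Msmo1 (199, 81.9 and 205 CPM in WT GC, log2 difference 1.49, adjusted p = 0.023) and Stard4 (1.73, adjusted p = 0.0398). The comparisons share the WT GC libraries. For the 6 leading members, Cyp51, Idi1, Pmvk, Acat2, Insig1 and Sqle, the log2 differences from naive cells were 2.09, 1.97, 1.54, 1.75, 1.59 and 2.06.

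With any 1 library of the compared groups left out, Idi1, Cyp51, Pmvk and Acat2 remained called against both activated and naive cells, and Sqle against activated cells (adjusted p up to 0.045). Other calls did not hold in each of these fits. Against activated cells, Insig1 was lost without WT activated replicate 1 or WT GC replicate 1 (adjusted p = 0.0579 and 0.053). Hsd17b7 was lost without any 1 of the activated libraries or WT GC replicate 4 (up to 0.0757), and Sc5d without WT activated replicate 3 or 4 or WT GC replicate 1 or 4 (up to 0.108). Against naive cells, the calls of Sqle, Msmo1, Hsd17b7, Sc5d, Insig1 and Stard4 each ended without at least 1 library, with adjusted p up to 0.0663, 0.0866, 0.155, 0.0933, 0.0589 and 0.14. The log2 differences stayed above 0 throughout, between 0.69 and 2.81.

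How many members differ depends on WT GC replicate 3, the WT library with few detected genes. Without it, 13 members were called higher and 1 lower against activated cells, the added ones being Hmgcs1, Lss, Msmo1, Srebf2 and Stard4 above and Lpin1 below, while 17.2% of all genes were called in either direction. With replicate 3 alone as the GC group, the members' median log2 difference from activated cells was -0.01. Calls in that fit take the spread from the other groups and assume that the lone library varies like them, so none is read here. Compared library by library with the mean of activated cells, the members' median on the log2(CPM + 1) scale was 1.17 and 0.83 in WT GC replicates 1 and 4, and -0.01 in replicate 3. Over all genes these medians were -0.06, -0.06 and -0.70. The members' summed CPM was 2094 and 1722 in replicates 1 and 4, 1016 in replicate 3, and 791 to 973 in the 12 naive and activated libraries.

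**Figure D2:**
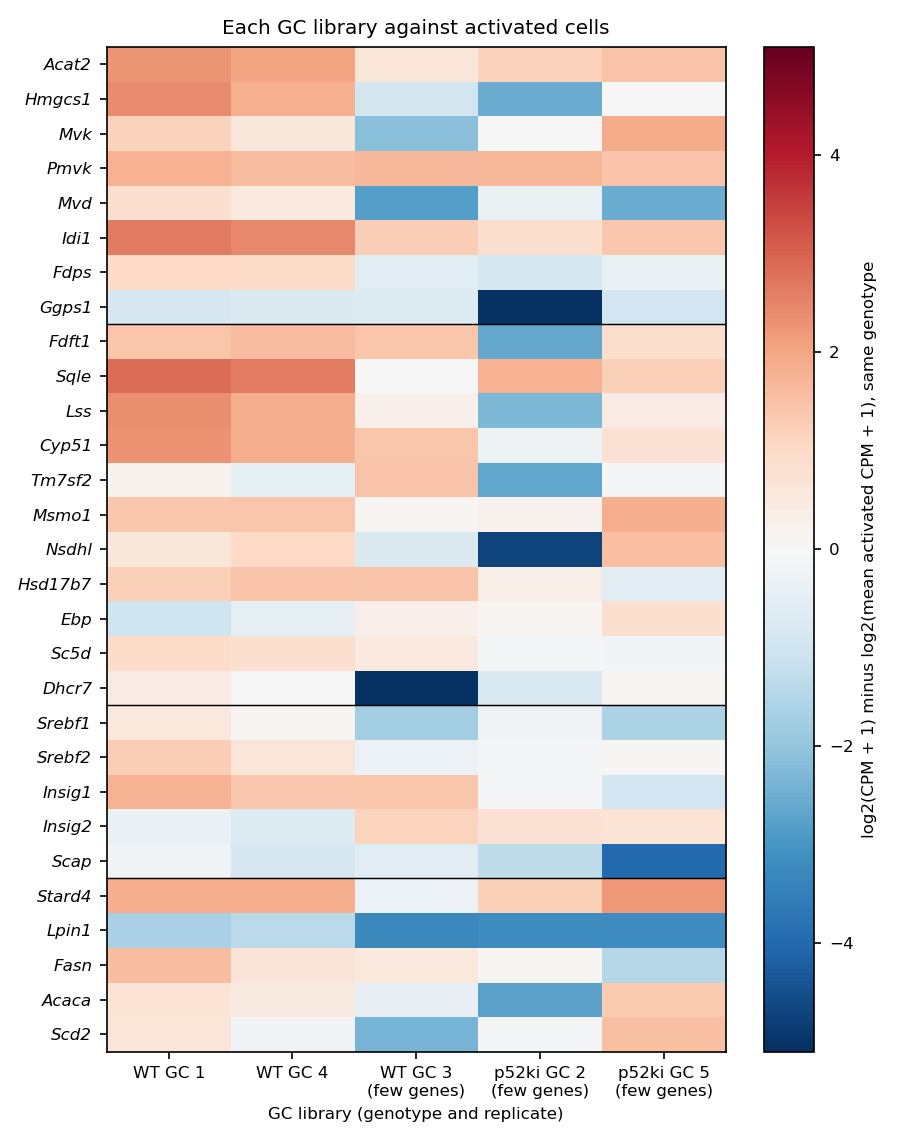
Each of the 29 members (rows, by role from top: mevalonate enzymes, sterol enzymes, SREBP regulators, lipid targets) in each GC library (columns). Color gives log2(CPM + 1) minus log2 of the mean activated CPM + 1 in the same genotype, red above and blue below; WT GC replicates 1 and 4 are red across most enzymes, with member medians of 1.17 and 0.83, and the 3 libraries with few detected genes are mixed.

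Between p52ki GC and p52ki activated cells 4 of 29 members were called higher, beside 6.34% of all genes, and 2 lower, beside 19.3% of all genes. Over all genes the median log2 difference was -0.41, and over the members it was -0.01. Pmvk rose again, with 33.4 and 28.2 CPM in p52ki GC replicates 2 and 5 against 9.74, 8.92 and 10.2 in p52ki activated cells (1.68, SE 0.374, adjusted p = 0.00596). This is close to the WT GC level of 30.4 ± 2.1 CPM (SD, n = 3). Stard4 (17.9 and 36.7 CPM against 7.19, 4.81 and 9.65), Acat2 (44.1 and 54.0 against 14.3, 20.9 and 21.7) and Idi1 (47.2 and 69.7 against 31.9, 23.7 and 23.5) rose by 1.92, 1.37 and 1.15, with adjusted p of 0.0261, 0.0306 and 0.0311. In all 4 genes both GC libraries were above all activated ones. Without overlap of libraries, 7 of 29 members were higher and 5 lower, beside 15.2% and 38.2% of all genes. Pmvk remained called with any 1 library of these groups left out. Stard4 was lost without p52ki activated replicate 2 or 3 or p52ki GC replicate 5 (adjusted p up to 0.0819), and Acat2 without any 1 of the activated libraries (up to 0.107). Idi1 was lost without p52ki activated replicate 3 or 5 or p52ki GC replicate 5 (up to 0.0845). Voom called 0 members in this comparison, and the groups fitted alone gave 1.

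Scap and Lpin1 were the members called lower in p52ki GC than in p52ki activated cells. Their count lies under the share of all genes called lower, 19.3%, and is not a result about the module. Scap was at 11.4 and 0.984 CPM against 31.6, 24.9 and 32.5 in p52ki activated cells, lower in both libraries and by far the most in replicate 5 (-2.29, SE 0.693, adjusted p = 0.0266). Without replicate 2 the difference was -4.79 and without replicate 5 it was -1.25, and without p52ki activated replicate 2 or 5 the call ended (adjusted p = 0.0592 and 0.0554). Lpin1 had no read in either p52ki GC library and 9.46, 7.16 and 7.62 CPM in p52ki activated cells. Set against a floor of 3 counts over the group (0.293 CPM), it was 27.5-fold lower. The floor covers counting noise alone, and libraries of the same group differ by more than that, so 27.5 is not a sure lower limit. Nsdhl, for example, had 0 counts in p52ki GC replicate 2 and 470 in replicate 5. The edgeR fit, which uses no floor, called Lpin1 lower (adjusted p = 0.00302). Lpin1 was also at 0 in WT GC replicate 3, so it is missing from all 3 libraries with few detected genes, and the part of that in this fall was not tested.

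From p52ki naive cells, 3 members were called higher in p52ki GC cells, beside 8.68% of all genes, namely Pmvk (1.78), Idi1 (1.27) and Msmo1 (1.37). Another 3 were called lower, beside 20.4% of all genes, namely Lpin1 (30.8-fold lower at the same floor), Scap (-2.69) and Ggps1 (-2.12). These shares lie near or under those of all genes and are not a result about the members. Ggps1 was at 1.94 and 47.7 CPM in p52ki GC replicates 2 and 5 against 103, 112 and 113 in p52ki naive cells. Without replicate 2 the difference was -1.05, without replicate 5 it was -5.64, and the call ended without any 1 of the naive libraries (adjusted p up to 0.0669). Msmo1 came to 0.49 without p52ki GC replicate 5 (adjusted p = 0.388) and to 2.11 without replicate 2, and its call also ended without any 1 of the naive libraries. Idi1 was lost without p52ki naive replicate 5 (adjusted p = 0.0609). Scap came to -5.15 without p52ki GC replicate 2 and to -1.62 without replicate 5.

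**Figure D3:**
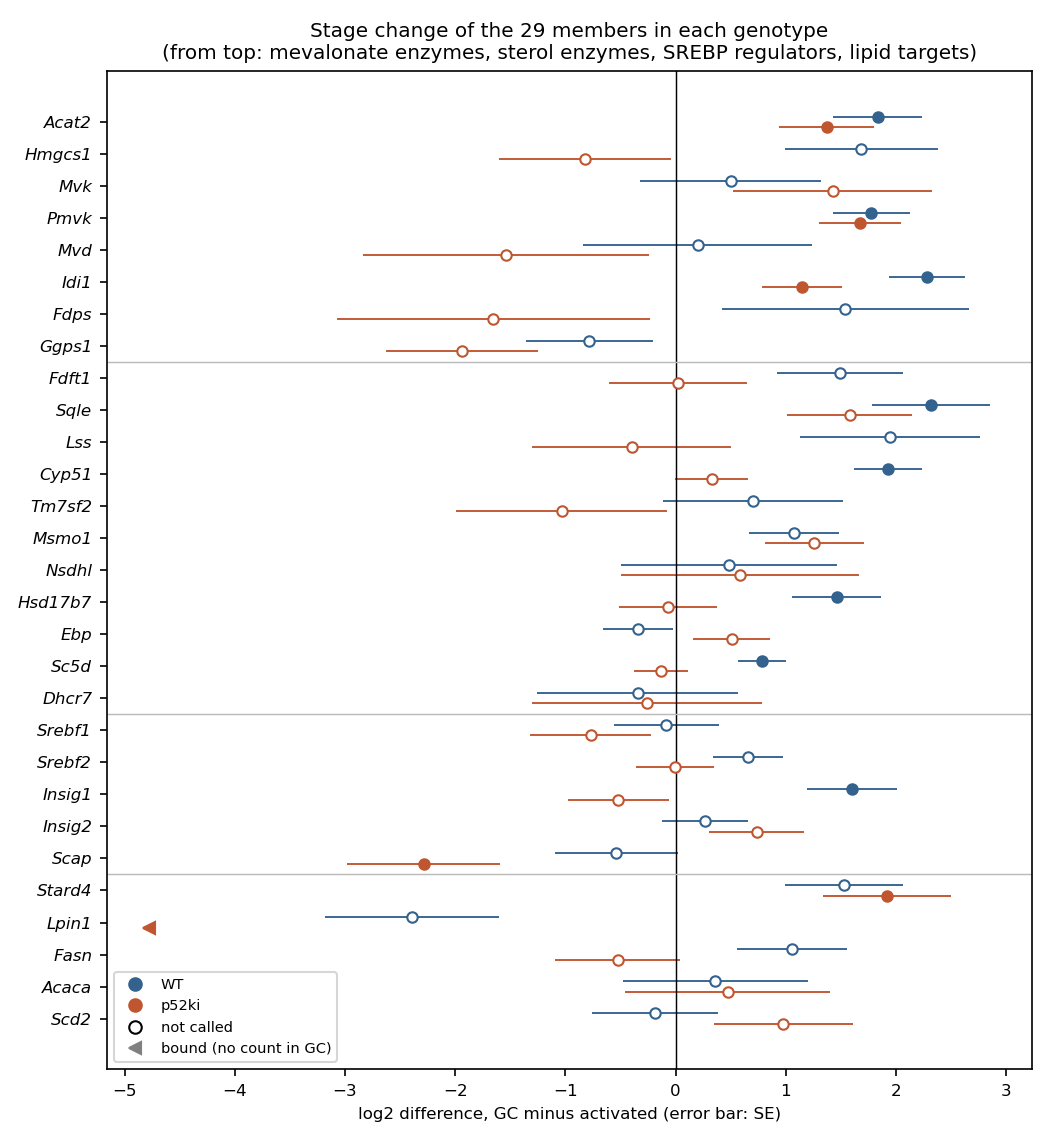
Log2 difference between GC and activated cells (x axis) for the 29 members (y axis, by role), WT in blue and p52ki in orange. Filled points passed the test, error bars are the SE, and the triangle is the bound for Lpin1, which had no read in p52ki GC; Pmvk, at 1.78 and 1.68, lies at the same place in both genotypes, and Cyp51 and Insig1 lie apart.

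Compared directly at the GC stage, 0 of 29 members were called higher in p52ki than in WT, where 3.75% of all genes were, and 5 lower, where 12.2% of all genes were. The count of 5 is not far above that share and is not read as a result about the module. The members' median was -1.08 and that of all genes -0.32. Cyp51 was at 35.9 and 72.7 CPM in p52ki GC against 229, 121 and 167 in WT GC, and it was lower by a log2 difference of -1.67 (SE 0.354, adjusted p = 0.00724). Insig1 was at 12.4 and 6.40 CPM against 52.2, 40.3 and 38.3 (-2.22, SE 0.491, adjusted p = 0.00905). For both genes the 2 p52ki GC libraries lay below all 3 WT GC libraries, replicate 3 included. Without overlap of libraries, 8 of 29 members were lower and 0 higher, beside 15.4% and 9.45% of all genes.

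Sc5d was at 55.0 and 53.6 CPM in p52ki GC against 117, 85.9 and 107 in WT GC, without overlap (-0.93, SE 0.25, adjusted p = 0.0223). Hmgcs1 was at 3.88 and 27.1 CPM against 169, 15.7 and 111, with WT GC replicate 3 between the p52ki libraries (-2.66, SE 0.843, adjusted p = 0.0445). Lpin1 was at 0 in both p52ki GC libraries and in WT GC replicate 3, and at 2.05 and 2.72 CPM in the other WT GC libraries. It was 5.42-fold lower at the same floor, and the edgeR fit without a floor gave an adjusted p of 0.0256. Hsd17b7, with 16.5 and 8.37 CPM against 27.3, 32.6 and 32.6, did not overlap but did not pass (-1.32, SE 0.46, adjusted p = 0.063). With any 1 GC library left out, Cyp51 and Insig1 remained called (adjusted p up to 0.0385 and 0.0256). Sc5d was lost without WT GC replicate 1 or 4 or p52ki GC replicate 2 (up to 0.0618), and Lpin1 without any 1 GC library other than WT GC replicate 3 (up to 0.0714). Hmgcs1 was lost without WT GC replicate 1 or 4, came to -1.77 without p52ki GC replicate 2 (adjusted p = 0.168) and to -4.55 without p52ki GC replicate 5. The naive B cell markers given above, 5 of 6 of them called higher, move in this same comparison.

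The regulators and lipid genes other than Insig1 and Lpin1 were not called between the genotypes at this stage. Srebf2 was at 115 and 127 CPM in p52ki GC (-0.45, adjusted p = 0.406), and Srebf1 at 38.5 and 13.6 (-0.68, adjusted p = 0.413). Insig2 was at 52.8 and 52 CPM (0.41, adjusted p = 0.546) and Scap at the 11.4 and 0.984 given above (-1.74, adjusted p = 0.091). Their WT GC values overlap with these for Srebf1, Srebf2 and Insig2, and lie above them for Scap. Fasn was at 19.9 and 6.07 CPM (-1.58, adjusted p = 0.0777), Acaca at 0.242 and 19.7 (0.41, adjusted p = 0.795) and Scd2 at 38.8 and 122 (1.01, adjusted p = 0.286). Acaca and Scd2 differ more between the 2 p52ki libraries than between the genotypes.

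In number of detected genes, WT GC replicate 3 is the WT library nearest to the p52ki GC libraries. Against that library alone, the log2 differences of Cyp51, Insig1 and Hsd17b7 were -1.16, -2.11 and -1.40. In the same comparison 17 of 29 members were above 0 and the members' median was 0.10, given here without the values over all genes. Hmgcs1 came to 0.00 and Sc5d to -0.66. Calls in this comparison take the spread from the other groups and assume that the lone library varies like them, so none is read here. Without WT GC replicate 3, 11 members were lower and 2 higher (Ebp and Insig2), beside 28.7% of all genes. The log2 differences of Cyp51 and Insig1 were below 0 with replicate 3, without it and against it alone. These settings share the p52ki GC libraries and are not separate tests. The part of the low number of detected genes in these values was not tested. With limma's voom and sample weights, which give noisy libraries less weight, 0 members were called in this comparison, and Cyp51 and Insig1 had adjusted p of 0.234 and 0.287. With the GC groups fitted alone, 0 were called, and both had an adjusted p of 0.614.

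The difference between the genotypes in the step from activated to GC cells was tested directly. It was called for 0 of 29 members, beside 0.977% of all genes higher and 4.97% lower in p52ki. An unadjusted p below 0.05 was found for 7 of 29 members and for 3620 of the 15352 genes tested. DESeq2 called 5 members, given here without its share of all genes. Neither count is read as a result about the members. The smallest adjusted p were 0.0509 for Cyp51 (-1.6, SE 0.456) and 0.0553 for Insig1 (-2.12, SE 0.62). Pmvk, at -0.10 (SE 0.508), had an unadjusted p of 0.847. For the step from naive to activated cells, 0 members and 0% of all genes were called, with 0 members at an unadjusted p below 0.05 and 0 by DESeq2.

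In naive and in activated cells no difference between the genotypes was detected for the members in the fit of all 17 libraries. In naive cells 0 of 29 members were called between p52ki and WT, beside 0% of all genes. In activated cells 0 of 29 were called, beside 0.013% of all genes. No member had an unadjusted p below 0.05 at either stage, and DESeq2 called 0 members at both.

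Dhcr7 (ENSMUSG00000058454, chr7:143823145-143848410, + strand), the reductase of the last step in one branch to cholesterol, stood apart from the rest. Its level was 24.9, 25.1 and 31.9 CPM in WT naive and 9.41, 7.5 and 12.3 in p52ki naive cells. It was at 33.3, 35.7 and 27.1 CPM in WT activated and 13.8, 15.1 and 12.4 in p52ki activated cells. All 6 p52ki libraries were below all 6 WT libraries, and no member other than Dhcr7 was without overlap at both stages, where 0.423% of all genes were lower in that way and 0.313% higher. In GC cells it was at 43.6, 0 and 31.7 CPM in WT and 7.51 and 15.4 in p52ki, so the missing reads in WT GC replicate 3 make the groups overlap.

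The fit of all 17 libraries did not call Dhcr7 in naive cells (-1.49, SE 0.936, adjusted p = 1) or in activated cells (-1.22, SE 0.928, adjusted p = 1). That fit gives each gene 1 spread over all 6 groups, and for Dhcr7 it includes WT GC libraries between 0 and 43.6 CPM. After these values were seen, further fits without the GC libraries were made, and their p-values are for a gene picked for its pattern. The 12 naive and activated libraries gave -1.48 (SE 0.232, adjusted p = 0.0254) in naive and -1.22 (SE 0.228, adjusted p = 0.0749) in activated cells. The mean of both stages in these 12 libraries gave -1.35 (SE 0.163, adjusted p = 0.00096). That fit counted libraries with the same number as separate, though they may be paired. It was replaced by a fit on naive and activated counts summed for each number.

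The sums of Dhcr7 were 11.9, 11.6 and 12.5 CPM in p52ki and 28.6, 31.0 and 29.7 CPM in WT. The log2 difference was -1.31 (SE 0.163, adjusted p = 0.0187 in edgeR), and Dhcr7 was 1 of the 0.0391% of all genes called lower, beside 0.0195% called higher. Leaving out any 1 of the 3 p52ki numbers ended the call, with adjusted p of 0.0503 to 0.145 and differences between -1.34 and -1.30. The exact two-sided permutation p was 0.1 at each stage and for the sums, the smallest that 3 against 3 allows. The other 28 members had adjusted p = 1 in the summed fit.

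**Figure D4:**
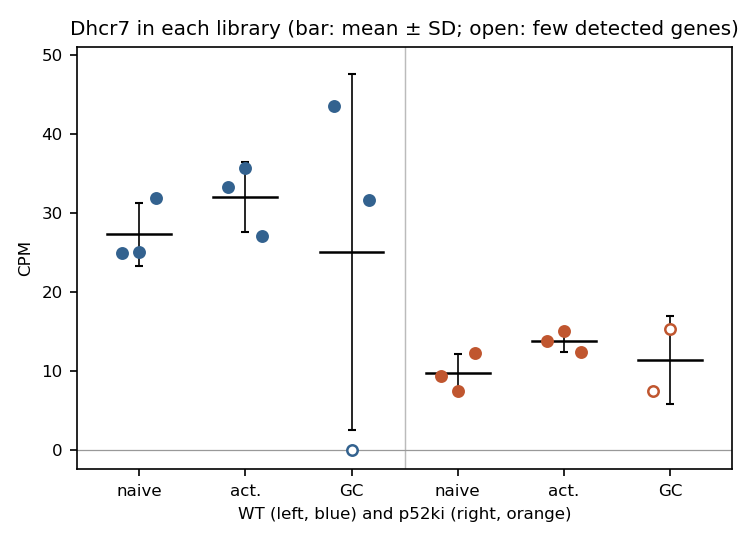
Dhcr7 in every library (y axis, CPM; x axis, naive, activated (act.) and GC cells, WT in blue on the left, p52ki in orange on the right; bars are mean ± SD, open points are the 3 GC libraries with few detected genes). The 6 p52ki naive and activated libraries lie between 7.5 and 15.1 CPM, all below the 6 WT ones, and WT GC replicate 3 is at 0.

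Genes around Dhcr7 did not show this difference. Of 11 protein-coding genes within 250 kb, 8 were tested, and the other 7 had adjusted p = 1 in the summed fit. Nadsyn1, the NAD synthetase gene that starts 295 bases away on the opposite strand, was at 16.5, 21.3 and 18.8 CPM in p52ki and 19.9, 23.4 and 20.6 in WT (-0.17, SE 0.176).

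Other genes of sterol and lipid metabolism give the setting for the WT GC values. Of 18 tested genes of cholesterol efflux, esterification and transport, 0 were called higher and 3 lower between WT GC and WT activated cells, beside 5.8% and 7.75% of all genes, with a median log2 difference of -0.90. Abcg1, a sterol exporter, fell by 4.11 (SE 0.783, adjusted p = 0.0026), from a mean of 28.1 to 1.55 CPM. Lipa, the lysosomal lipase that frees cholesterol from esters, fell by 1.58 (SE 0.351, adjusted p = 0.00735). Npc2, which takes part in cholesterol export from the lysosome, fell by 1.43 (SE 0.389, adjusted p = 0.024). Gpr183, the oxysterol receptor that guides B cells, fell by 1.63 (SE 0.356, adjusted p = 0.00671) among 3 tested genes of oxysterol synthesis and sensing. In p52ki GC cells Gpr183 was at a mean of 134 CPM against 50.6 in WT GC (1.41, SE 0.384, adjusted p = 0.0237). In that comparison all 6 naive B cell markers had positive differences and 5 were called higher, and their part in the Gpr183 value was not tested.

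Of 18 tested fatty acid genes outside the module, 1 was called higher, Mid1ip1, an activator of acetyl-CoA carboxylase (1.88, SE 0.543, adjusted p = 0.0322). Another 2 were called lower, the desaturase Scd1 (-1.29, SE 0.211, adjusted p = 0.000842) and the elongase Elovl5 (-0.79, SE 0.211, adjusted p = 0.0208). With 5.8% of all genes called higher and 7.75% lower, these counts are near those of all genes and are not a result about this list. None of 12 genes of SREBP processing and sterol sensing and none of 14 genes of the non-sterol mevalonate branches passed in either direction, with medians of -0.14 and 0.09. At an unadjusted p below 0.05 these lists had 0 and 2 genes, beside 4096 of the 15352 genes tested. Of 16 proliferation genes, 15 were called higher, with a median of 3.34, and their summed CPM was 3070 to 4990 in WT GC, 1840 to 2340 in p52ki GC and 286 to 621 in the other libraries. Proliferation genes were thus also higher at the GC stage, and their part in the sterol gene levels was not tested.

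**Figure D5:**
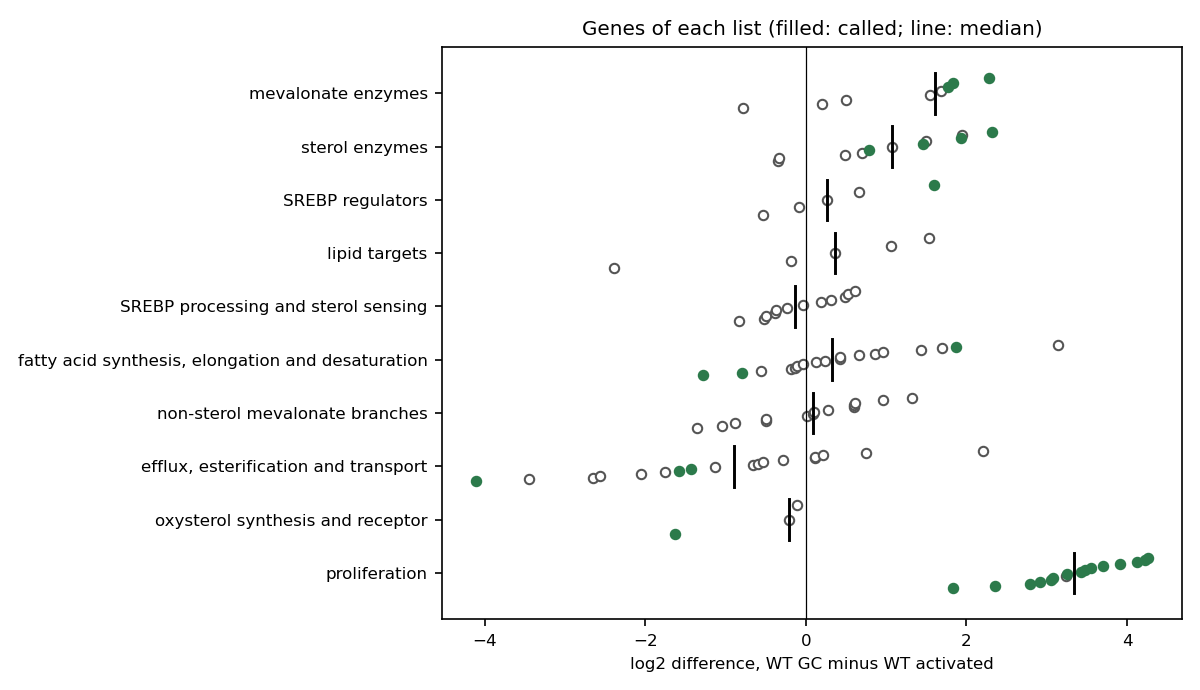
Log2 difference between WT GC and WT activated cells (x axis) for the tested genes of each list (y axis). Filled points passed the test and black lines are medians, which run from -0.90 for the efflux, esterification and transport genes to 1.61 for the mevalonate enzymes and 3.34 for the proliferation genes.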

How the data were processed

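Bulk RNA of 17 mouse spleen B cell libraries in 6 groups was measured with a SMART-Seq kit, per the labels' protocols. The deposited table holds raw read counts per gene. Per the submitters' processing notes, HISAT2 2.1.0, SAMtools 1.8, featureCounts (Subread 1.6.2) and build GRCm38 were used; counting strand and the treatment of reads matching several places were not given in these sources. Genes with enough reads (edgeR's filterByExpr, 15352 of 55536) were fitted with edgeR 4.0.16 (quasi-likelihood, robust, TMM scaling, R 4.3.3) over all 17 libraries with 1 term per group and no replicate block, and p-values were adjusted by Benjamini-Hochberg over all 15352 genes. A member was called at an adjusted p below 0.05. Differences are on the log2 scale, and a SE is the difference divided by the square root of its F statistic. CPM uses the TMM-scaled total of the tested genes. A group with no read was set to a floor of 3 counts over the group, which covers counting noise alone. Coordinates are from GENCODE (GRCm38), 1-based. The scripts were tested on simulated data.

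Alternatives were RLE scaling, no filter, DESeq2 1.42.0, limma 3.58.1 (voom with sample weights), groups fitted alone, the replicate number as a block, detected genes per library as a covariate, and leaving out each library. Fits without GC libraries and with WT GC replicate 3 alone as the WT GC stage were added after seeing the data. Replicate numbers repeat within a genotype. Deviations from the group mean in naive and activated libraries of the same number correlated at 0.164 to 0.625 in all 6 pairs. Naive and activated pairs of other numbers within a genotype ranged from -0.691 to 0.535. The highest, p52ki naive replicate 5 with activated replicate 2, exceeded the 0.257 of naive replicate 5 with its own number. The numbers may thus pair these stages, but this is not settled. GC libraries did not follow their number (-0.496 to 0.149). Replicate pairs differed by more than sampling noise (chi-square per degree of freedom 7.89 to 116), so no library was counted as a repeat.

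The members and lists were chosen with earlier results of these data known. Values per library are given for the 6 members with the smallest p in each WT stage comparison and between genotypes at the GC stage, and for Srebf1, Srebf2, Insig1, Insig2, Scap, Fasn, Acaca and Scd2. From each other list, called genes may be named.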

Additional observations from a re-analysis of the deposited data

Results flagged for a closer look

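In WT every GC library lay above the mean of the activated libraries for Sc5d, and in p52ki both GC libraries lay below it. The GC minus activated difference was 0.79 in WT and -0.13 in p52ki. The test of the difference between the genotypes gave -0.92 on the log2 scale (SE 0.329) and did not pass (edgeR adjusted p = 0.103).

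Insig1 showed the same arrangement, with 1.6 in WT and -0.52 in p52ki. The difference between the genotypes was -2.12 (SE 0.62) and did not pass either (edgeR adjusted p = 0.0553). Both p52ki GC libraries hold few detected genes, and the part of this in either value was not tested.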

How the results depend on the processing

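Counts of members called in either direction, compared with those in the report, changed with the fit as follows. The share of all genes called also moves with the fit and is not printed beside each count. These counts show how far the calls depend on the fit and are not read as results about the members. WT GC against activated (8 called) gave 5 without the filter, 20 by voom, 3 with the groups fitted alone, 5 with the replicate block, 14 with detected genes as covariate, and 6 to 14 with 1 library left out. WT GC against naive (10) gave 6, 19, 6 and 5 for no filter, voom, groups alone and the block, and 4 to 12 with 1 library left out. With WT GC replicate 3 alone as the GC group, the members' median log2 difference was -0.01 from activated and -0.27 from naive cells. Calls with that lone library are not read. p52ki GC against activated (6) gave 0 by voom, 1 alone, 2 with the block, 10 with the covariate, and 3 to 11. p52ki GC against naive (6) gave 3 without the filter, 0 by voom, 1 alone, 3 with the block, 11 with the covariate, and 3 to 15. p52ki GC against WT GC (5) gave 10 by DESeq2, 0 by voom, 0 alone, and 2 to 13. Its difference in the step to GC (0) gave 5 by DESeq2, 3 with the covariate, and 0 to 8. Activated against naive (0 in each genotype) gave 1 by voom in each and 0 with the block. p52ki against WT in naive cells (0) gave 1, Dhcr7, alone and in the 12 naive and activated libraries. In the summed counts (1) leaving out 1 number gave 0 to 1.

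With WT GC replicate 3 alone as the GC group, Sqle turned to -0.011 against activated and -0.27 against naive cells, and Stard4 to -0.12 against naive cells. Against that library alone, Hmgcs1 turned to 0.0020 between the genotypes. The causes were not tested. With RLE scaling the median over every tested gene shifted by at most 0.1. Libraries with few detected genes limit the GC values: 5, 7 and 4 members had under 10 counts in WT GC replicate 3 and p52ki GC replicates 2 and 5.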
